A study of Homo sapiens with 6 samples.

Results

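The genes described here build cholesterol, move it inside the cell, sense its level and export it. They are 32 genes chosen by name for these roles, with earlier results of these data known. All 32 were found among the 26490 gene symbols of the count table. RNA-seq was done on SW403, an established human colon adenocarcinoma cell line, in 2 groups of 3 libraries. The control libraries come from cells labelled WT with normal expression of IRS2, the gene of an adaptor protein that couples the insulin and IGF1 receptors to intracellular signalling. The other libraries come from cells with a knockdown of IRS2. All cultures were grown for 24 h in DMEM with fetal bovine serum and received no treatment. The column headers of the count table mark the groups NS and IRS2KO, while the sample titles say control and knockdown. This difference in labels is not explained. How the knockdown was made, and whether it rests on 1 clone or on several, is not given in the sources used here.

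Cholesterol is made from acetyl-CoA through mevalonate, isoprenoid units, squalene and lanosterol. The transcription factor SREBP2 (gene SREBF2) switches these enzymes on. Its escort SCAP carries it out of the endoplasmic reticulum when sterols are low, and the INSIG proteins hold SCAP back when sterols are high. Oxysterols, which build up when cholesterol is plentiful, activate the nuclear receptors LXRα (NR1H3) and LXRβ (NR1H2). LXR targets include the efflux pumps ABCA1 and ABCG1 and the ubiquitin ligase MYLIP, which removes lipoprotein receptors. Proliferating cells need sterols for new membrane, and insulin signalling is known to raise SREBP activity.

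The knockdown libraries were lower for most of the synthesis genes and for SREBF2, SCAP and INSIG1, by small amounts. Of the 32 members, 30 had enough counts to be tested, and 20 of these fell in knockdown while 2 rose (adjusted p under 0.05, edgeR's quasi-likelihood test). Over all 13832 tested genes, 38.5% passed, 19.2% as lower and 19.3% as higher. The median log2 fold change of the 22 SREBP2 target genes among the members was -0.23, against -0.0039 over all tested genes. Because the members were chosen with earlier results known, these contrasts with all genes are descriptions and not tests. The LXR efflux arm was barely expressed: ABCA1 and ABCG1 had at most 15 counts in any library and were not tested, and MYLIP did not pass the threshold. Partner genes went separate ways in 3 cases. INSIG1 fell while INSIG2 did not pass, NPC2 fell while NPC1 rose slightly, and NR1H3 fell while NR1H2 rose. The call of NPC1 was lost in 7 of 18 alternative fits and that of NR1H3 in 5.

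Libraries held 11816973 to 12585013 counts in control and 14329348 to 18114656 in knockdown, so each knockdown library was the deeper. IRS2 itself was at 32.4, 34.8 and 32.2 CPM (counts per 1000000 of the library total) in control and at 12.98, 12.3 and 11.9 CPM in knockdown. Its log2 fold change was -1.39 ± 0.07 (SE; edgeR adjusted p 3.12e-11). Of 11 colon epithelium markers, KRT8 (1106 and 1043 CPM, mean of control and knockdown), KRT18 (1131 and 1071 CPM), KRT19, EPCAM and CDX2 were well above 0. Among them KRT19 fell from 230.1 to 162 CPM (log2 fold change -0.47, edgeR adjusted p 4.35e-08) and EPCAM from 40.2 to 33.9 CPM (-0.21, 0.00581). CDX2 rose from 77.7 to 83.7 CPM (0.14, 0.0148), a call lost in 5 of 18 alternative fits. KRT20 and CDX1 had no count in any library, which allows up to 0.166 to 0.254 CPM, and CDH1 averaged 0.265 and 0.0991 CPM. The means of CDH17 (0.136 and 0.280 CPM) and LGALS4 (0 and 0.0698 CPM) were also near 0. VIL1 was low, at 4.34 and 5.42 CPM, and did not pass (edgeR adjusted p 0.0999). Summed over 12 markers of fibroblasts, immune and endothelial cells, the level was 11.8 to 23.4 CPM in control and 7.97 to 9.63 CPM in knockdown. The largest part was COL1A1 (means 8.91 and 3.96 CPM, with 15.3 CPM in control replicate 1), while PECAM1 and CDH5 were at 0 throughout. The part of these marker differences in the results below was not tested.

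The stretches printed here lie before the start sites of genes whose levels are compared below. They show the kind of sequence that SREBP2, LXR and the general factors NF-Y and Sp1 are known to read. They come from RefSeq (GRCh38.p14), whose promoter table matched 28 of the 32 members at 40 start sites. Each is written 5′ to 3′ on the strand of its gene, and capitals mark the words named for it. In the SREBF2 promoter (chr22:41832935-41833034) capitals mark TCACCCCAC, a core of the sterol regulatory element, and CCAAT, the box bound by NF-Y, here on the other strand as ATTGG. In FDPS (chr1:155308676-155308825) and HSD17B7 (chr1:162790572-162790661) they mark a relaxed form of the element, TCACNCNAC, and CCAAT boxes. A match of HSD17B7 to GGGCGG, the Sp1 box, on the other strand is left in lower case. In INSIG1 (chr7:155297698-155297807) they mark CCAAT and GGGCGG only, since neither form of the sterol element was found in its promoter. In ABCA1 (chr9:104928196-104928265, minus strand) they mark GGGCGG and an LXR type element. That element was searched as a direct repeat of the half-site NGGTNA with 4 bases between the copies, and it lies on the other strand.
SREBF2: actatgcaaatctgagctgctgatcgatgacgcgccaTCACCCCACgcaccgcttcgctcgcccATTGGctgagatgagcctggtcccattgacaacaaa
FDPS: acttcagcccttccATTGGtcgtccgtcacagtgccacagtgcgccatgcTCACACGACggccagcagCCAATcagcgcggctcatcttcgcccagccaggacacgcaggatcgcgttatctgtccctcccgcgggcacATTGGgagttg
HSD17B7: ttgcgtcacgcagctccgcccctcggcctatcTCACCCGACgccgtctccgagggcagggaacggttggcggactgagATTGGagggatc
INSIG1: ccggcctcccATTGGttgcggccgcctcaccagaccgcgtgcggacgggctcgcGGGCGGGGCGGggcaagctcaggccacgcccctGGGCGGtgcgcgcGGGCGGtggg
ABCA1: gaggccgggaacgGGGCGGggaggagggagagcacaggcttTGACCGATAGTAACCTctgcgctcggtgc

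All words were searched on both strands over 250 bases before and 50 after each start site. TCACCCCAC was found in 1 of the 24 promoters of SREBP2 target members, that of SREBF2, 133 bases before the start, and in 0.43% of all 35116 promoters. The relaxed form, which every TCACCCCAC also matches, was in 3 of 24 (SREBF2, FDPS and HSD17B7), against 2.55% of all. CCAAT stood in 18 of the 24 (75.0%), in 5 of the 16 promoters of other members and in 34.6% of all. GGGCGG stood in 22 of the 24, in 13 of the 16 and in 45.0% of all. In INSIG1 a pair of GGGCGG matches overlap. The LXR type element was in 1 of the 16 promoters of other members, that of ABCA1, in 1 of the 24 (HMGCS1) and in 0.624% of all. These counts describe letters in a window and do not show binding.

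The mevalonate steps come first. ACAT2 joins acetyl-CoA units, HMGCS1 makes HMG-CoA, MVK and PMVK phosphorylate mevalonate, and MVD decarboxylates the product to the first isoprenoid. ACAT2 was at 66.5, 73.0 and 64.3 CPM in control and at 52.3, 55.4 and 54.4 CPM in knockdown. Every knockdown library lay below every control library, and the fold change on the log2 scale was -0.30 ± 0.05 (SE, edgeR adjusted p 0.00015). HMGCS1 went from 76.3, 80.7 and 77.0 CPM to 67.4, 65.2 and 66.0 CPM (log2 fold change -0.21 ± 0.04 SE, adjusted p 0.000868). Its groups did not overlap either. MVD held 29.6, 29.1 and 25.7 CPM in control against 21.4, 20.45 and 21.5 CPM (-0.39 ± 0.07 SE, adjusted p 0.000229), the largest fall of the 5 mevalonate genes. MVK (-0.17 ± 0.08 SE, adjusted p 0.121) and PMVK (-0.02 ± 0.07 SE, adjusted p 0.840) did not pass, and their groups overlapped. For PMVK, 2 standard errors on each side span -0.17 to 0.13, and its sign changed in 5 of 18 alternative fits.

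Reads of 2 of these genes may be shared with neighbours on the other strand. In GENCODE version 44 on GRCh37, 36.3% of the exon bases of ACAT2 (chromosome 6, 160183077 to 160200144) are overlapped by genes of the other strand, which include TCP1 and SOD2. TCP1 had 5834 to 8762 counts per library, against 750 to 985 for ACAT2, and its log2 fold change was -0.02 (adjusted p 0.702). For HMGCS1 (chromosome 5, 43287572 to 43313614), 46.7% of exon bases are overlapped by a long non-coding RNA. The strand setting of the counting is not given in the sources used here.

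Isoprenoid units are interconverted by IDI1, joined by FDPS to farnesyl diphosphate and extended by GGPS1 to the lipid that anchors small GTPases. IDI1 was at 47.8, 49.4 and 46.4 CPM in control and at 33.3, 31.35 and 30.1 CPM in knockdown. The lowest control library stood well above the highest knockdown library, and the log2 fold change was -0.57 ± 0.06 (SE, edgeR adjusted p 1.54e-07). FDPS held 180.7, 172.3 and 169.9 CPM against 146.1, 140.3 and 145.8 CPM (-0.25 ± 0.04 SE, adjusted p 2.66e-05). Its groups did not overlap. RUSC1-AS1, a gene of the other strand that overlaps 41.4% of the FDPS exon bases, had 126 to 155 counts per library, against 2008 to 2642 for FDPS. GGPS1 fell by less (-0.21 ± 0.07 SE, adjusted p 0.0205). It did not pass without control replicate 1 (adjusted p 0.0989), control replicate 2 (0.0969) or knockdown replicate 2 (0.115), nor in DESeq2's Wald test (0.0841). In GENCODE version 44, 26.1% of the GGPS1 exon bases are overlapped by another gene of the same strand, so its reads may be shared. All 3 isoprenoid genes were lower, and their summed level went from 245.0 to 261.8 CPM over control libraries to 196.5 to 207.2 CPM.

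From squalene to lanosterol, FDFT1 joins farnesyl units to squalene, SQLE oxidises it, in a rate-limiting step, and LSS closes the rings. FDFT1 was at 104.2, 101.7 and 101.3 CPM in control and at 77.5, 81.2 and 81.0 CPM in knockdown. The controls differed by less than 3 CPM, and all knockdown libraries lay over 20 CPM below them (-0.33 ± 0.04 SE, edgeR adjusted p 3.21e-06). SQLE went from 118.7, 117.4 and 114.6 CPM to 99.7, 101.7 and 95.45 CPM, again with no overlap (-0.21 ± 0.04 SE, adjusted p 0.000261). LSS fell by the least, from 71.8, 72.5 and 67.8 CPM to 61.0, 66.7 and 61.4 CPM (-0.13 ± 0.05 SE, adjusted p 0.0351). The gap between its groups was about 1 CPM. CPM leave out the scaling factors of the model (1.0141 in control replicate 3, 0.9911 in knockdown replicate 2). Divided by them, the groups of LSS overlap. Without control replicate 1 or 2, or knockdown replicate 1 or 3, the adjusted p of LSS was 0.0927, 0.161, 0.133 and 0.0926. It was 0.116 in DESeq2's Wald test and 0.102 with counts thinned to the smallest library.

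Of the 8 genes from lanosterol to cholesterol, 6 fell and 2 did not pass. CYP51A1, which removes the first methyl group of lanosterol, was at 190.5, 190.8 and 185.7 CPM in control and at 185.9, 185.9 and 183.5 CPM in knockdown. The groups overlapped and the log2 fold change was -0.0004 ± 0.03 (SE, edgeR adjusted p 0.994), with 2 standard errors spanning -0.07 to 0.06. Its sign changed in 12 of 18 alternative fits. In GENCODE version 44, 90.1% of its exon bases are shared with readthrough genes on the same strand, and whether the annotation used for counting holds them is not given. TM7SF2, a sterol C14 reductase that acts on the product of CYP51A1, was at 9.93, 13.2 and 10.9 CPM against 6.56, 7.56 and 8.06 CPM. Its log2 fold change was -0.58 ± 0.12 (SE, adjusted p 0.00099), and TM7SF2 and IDI1 had the largest falls of the 19 enzymes, within error of each other. LBR, a nuclear envelope protein that carries out the same reaction and is not a member, rose (0.26 ± 0.03 SE, adjusted p 3.29e-06).

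MSMO1 and NSDHL remove the other methyl groups with HSD17B7, and all 3 fell. The log2 fold changes were -0.22 ± 0.06 for MSMO1, -0.15 ± 0.05 for NSDHL and -0.44 ± 0.14 for HSD17B7 (SE; edgeR adjusted p 0.00315, 0.0256 and 0.0211). HSD17B7 had 86 to 132 counts per library, and its groups overlapped. A near-identical pseudogene, HSD17B7P2, had 5 to 19 counts, and reads shared between them cannot be assigned with certainty. HSD17B7 did not pass without control replicate 1 or 2 (adjusted p 0.0955 and 0.0861) or knockdown replicate 1 or 2 (0.0527 and 0.110), nor in DESeq2 (0.0653). NSDHL did not pass without control replicate 1 or 2 (0.0677 and 0.0928) or knockdown replicate 1 (0.118), nor in DESeq2 (0.120).

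The last steps are the isomerase EBP, the desaturase SC5D and the reductase DHCR7. EBP did not pass (-0.09 ± 0.05 SE, edgeR adjusted p 0.185), with knockdown replicate 3 at 87.7 CPM, inside the control range of 86.2 to 93.0 CPM. Without that library it passed (-0.14, adjusted p 0.0300). In GENCODE version 44, 57.1% of the EBP exon bases are overlapped by another gene of the same strand, so its reads may be shared. SC5D was at 80.1, 91.0 and 93.8 CPM in control and at 69.1, 68.1 and 65.4 CPM in knockdown. Control replicate 1 stood apart from the other two, and still lay above every knockdown library (-0.36 ± 0.05 SE, adjusted p 2.2e-05). DHCR7 went from 105.8, 103.3 and 97.0 CPM to 82.2, 84.85 and 80.0 CPM, with no overlap (-0.28 ± 0.04 SE, adjusted p 4.43e-05). Over the 19 enzymes from ACAT2 to DHCR7, 15 fell, by 8.92% to 33.1% from their fold changes, and the other 4 were MVK, PMVK, CYP51A1 and EBP. Their summed level was 1314 to 1371 CPM in control and 1139 to 1143 CPM in knockdown, a mean 15.3% lower. Fewer cells that express a gene and less RNA per cell cannot be told apart in such bulk libraries.

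**Figure D1:**
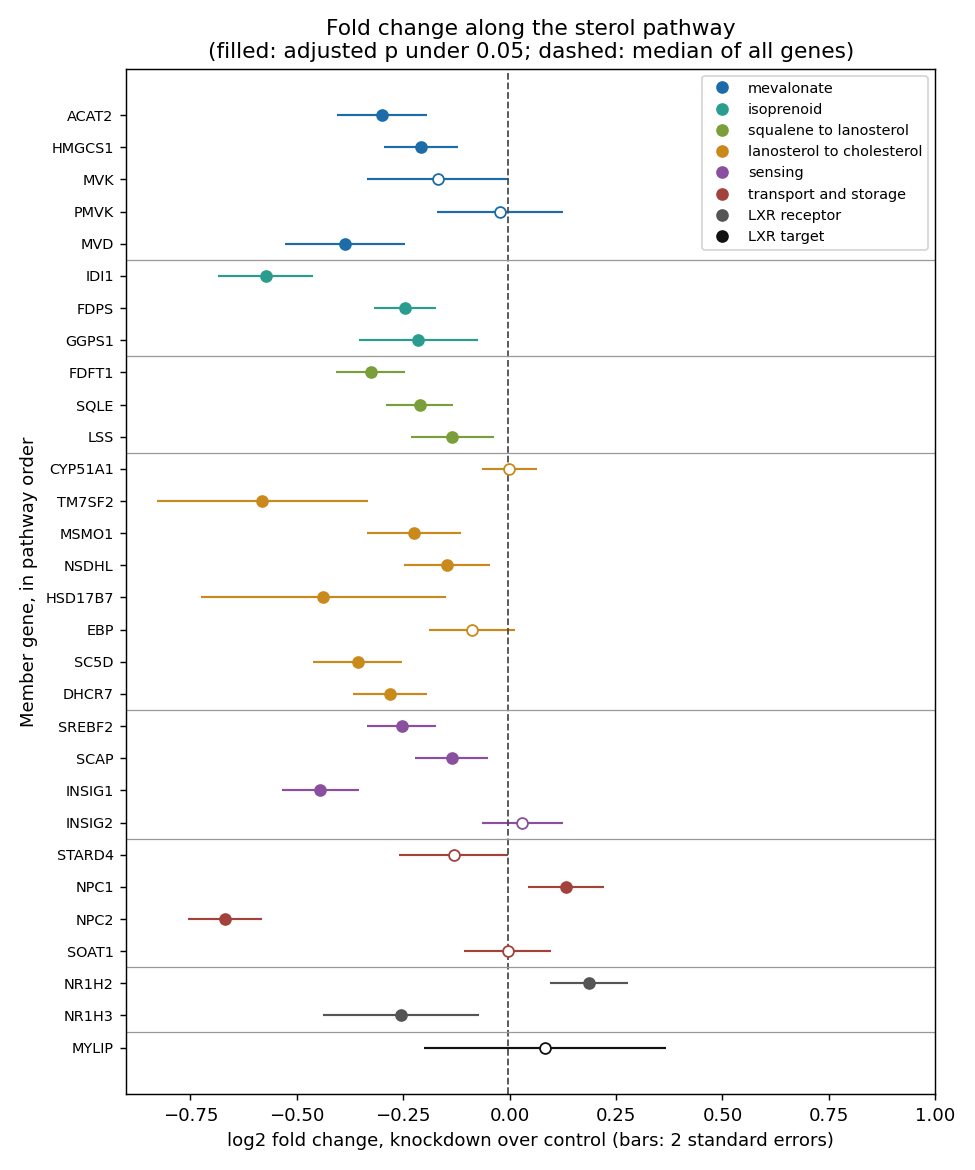
Log2 fold change, knockdown over control, of the 30 tested members in pathway order, with bars of 2 standard errors and filled points for an adjusted p under 0.05 in edgeR. Most points lie left of the dashed median of all genes (-0.0039), down to -0.67 for NPC2, while NPC1 and NR1H2 are the filled points to its right.

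The sensing genes showed the same split between partners. SREBF2 was at 128.5, 130.2 and 120.4 CPM in control and at 102.9, 105.9 and 102.8 CPM in knockdown. Its groups did not overlap (-0.25 ± 0.04 SE, edgeR adjusted p 5.43e-05), and it is the gene whose promoter holds TCACCCCAC, as printed above. INSIG1, itself a well-known SREBP target, went from 72.55, 73.1 and 70.8 CPM to 53.7, 51.5 and 50.8 CPM. The gap between groups was many times the spread within them (-0.44 ± 0.05 SE, adjusted p 2.58e-07). INSIG2, which does the same work but is not driven by SREBP in the same way, held 52.8, 54.9 and 52.55 CPM in control against 55.2, 53.0 and 52.3 CPM, with overlap. The difference on the log2 scale was 0.03 ± 0.05 (SE, adjusted p 0.659), with 2 standard errors spanning -0.07 to 0.13, and below 0 (-0.0003) with scaling by library size alone. Scaled by transcript length, INSIG1 stood at 1.68, 1.63 and 1.65 times INSIG2 in the control libraries and at 1.19 times in each knockdown library. SCAP fell slightly, from a control mean of 96.0 CPM to 85.5 CPM, without overlap (log2 fold change -0.14 ± 0.04 SE, adjusted p 0.0162). The call of SCAP was lost without control replicate 1 (0.0832), control replicate 3 (0.0523) or knockdown replicate 1 (0.0545), and in DESeq2 (0.0575). MBTPS1 and MBTPS2, the proteases that release SREBP2 and no members, did not pass (-0.02 and 0.08, adjusted p 0.730 and 0.218).

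Transport and storage genes moved in both directions. NPC2, a soluble lysosomal protein that hands cholesterol to the membrane protein NPC1, had the smallest p of all members. It was at 157.4, 161.8 and 152.8 CPM in control and at 91.1, 97.6 and 101.5 CPM in knockdown, a log2 fold change of -0.67 ± 0.04 (SE, edgeR adjusted p 6.65e-10). Its level fell by 37.1%, and no library of one group came near the other. NPC1 was at 72.8, 72.0 and 79.1 CPM in control and at 79.6, 81.9 and 78.6 CPM in knockdown. Control replicate 3 lay above the lowest knockdown library, so the groups overlapped in CPM. CPM leave out the scaling factors of the model (1.0141 in control replicate 3, 0.9845 in knockdown replicate 3). Divided by them, the groups of NPC1 do not overlap, and the model called NPC1 higher (0.13 ± 0.04 SE, adjusted p 0.0256). This call was lost with upper-quartile scaling (0.0555), library size alone (0.0873) and DESeq2's Wald test (0.0832). It was also lost without control replicate 1 (0.0957), control replicate 2 (0.108) or knockdown replicate 2 (0.108). Scaled by length, NPC2 stood at over 11 times NPC1 in each control library and at 6.64, 6.91 and 7.49 times in knockdown.

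STARD4 carries sterols between membranes and is an SREBP2 target. Its knockdown libraries spread widely, at 66.2, 61.0 and 52.55 CPM against 66.5, 69.3 and 64.2 CPM in control, and it did not pass (-0.13 ± 0.06 SE, edgeR adjusted p 0.111). Without knockdown replicate 1 it passed (-0.20, adjusted p 0.0176). SOAT1, which esterifies cholesterol for storage, lay at 48.5 to 52.2 CPM in control libraries and 47.35 to 50.1 CPM in knockdown ones. The difference on the log2 scale was -0.0046 ± 0.05 (SE, adjusted p 0.955), and its sign changed in 4 of 18 alternative fits.

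**Figure D2:**
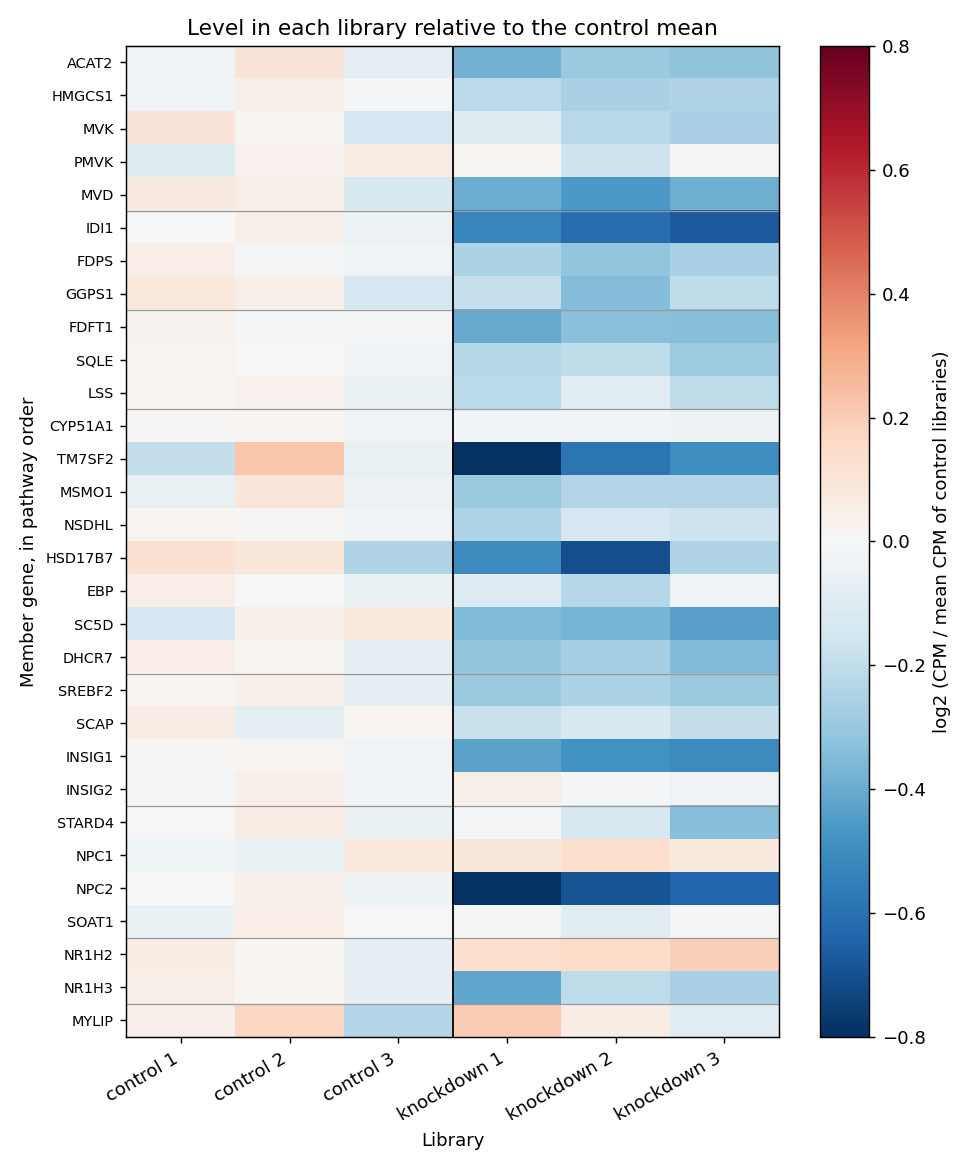
Heat map of the 30 tested members (rows, in pathway order) in the 6 libraries (columns). Colour gives log2 of the CPM over the mean CPM of the control libraries. The 3 knockdown columns are blue in most rows, and NPC2, TM7SF2, IDI1, INSIG1 and HSD17B7 are among the deepest. HSD17B7 is paler in knockdown replicate 3, and CYP51A1, INSIG2 and SOAT1 stay pale throughout.

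The LXR receptors differed from each other. NR1H2 (LXRβ) was at 75.5, 73.2 and 68.5 CPM in control and at 79.35, 80.0 and 82.5 CPM in knockdown, without overlap (0.19 ± 0.05 SE, edgeR adjusted p 0.00327). NR1H3 (LXRα) was at 14.7, 14.4 and 13.6 CPM in control and at 10.7, 12.4 and 11.9 CPM in knockdown. These groups did not overlap either, in the opposite direction (-0.25 ± 0.09 SE, adjusted p 0.0334). NR1H3 had an adjusted p of 0.0982, 0.0966 and 0.132 without control replicate 1, control replicate 2 and knockdown replicate 1. It was 0.153 in DESeq2 and 0.0833 with thinned counts. Length-scaled, NR1H2 exceeded NR1H3 by 3.85 to 3.94 times in control and by 4.96 to 5.70 times in knockdown.

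Of the LXR targets, ABCA1 and ABCG1 lay near the limit of detection, and MYLIP did not. ABCA1 (chromosome 9, 107543287 to 107690436 on GRCh37) was counted 3, 5 and 7 times in control and 2, 3 and 2 times in the deeper knockdown libraries. ABCG1 had 8, 15 and 6 counts in control and 5, 3 and 8 in knockdown. As CPM, every knockdown library was below every control library for both genes. Summed over libraries, the CPM of ABCA1 in knockdown was 0.348 of that in control (95% exact interval 0.12 to 0.908). For ABCG1 it was 0.412 (0.209 to 0.784). These intervals cover counting error only and leave out the spread between cultures. With no filter on low counts, the edgeR adjusted p was 0.152 for ABCA1 and 0.0559 for ABCG1, so no difference was shown at this depth. MYLIP was at 6.36, 6.93 and 5.25 CPM in control and at 7.12, 6.45 and 5.80 CPM in knockdown. Its groups overlapped, and the log2 fold change was 0.08 ± 0.14 (SE, adjusted p 0.688), or -0.02 without control replicate 3.

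**Figure D3:**
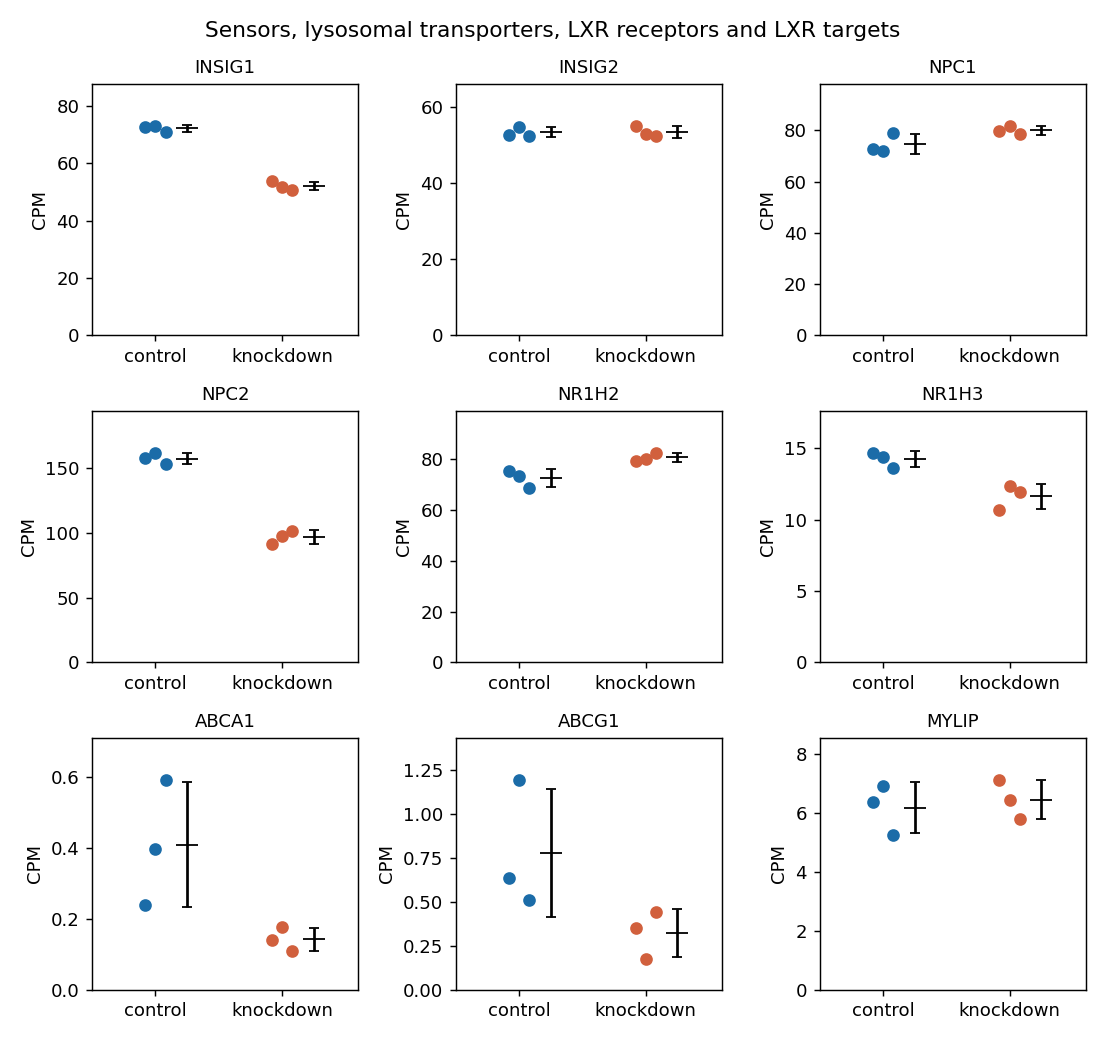
CPM of partner genes and LXR targets in each library, with control points at left and knockdown points at right of each panel, and the mean with its SD (n = 3) beside them. Axes start at 0. INSIG1 and NPC2 are separated between groups, INSIG2 is level, and the ABCA1 and ABCG1 axes end near 0.7 and 1.4 CPM.

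The SREBP2 and LXR arms can be set side by side by their summed levels. The 22 SREBP2 targets summed to 1620 to 1683 CPM in control and 1397 to 1417 CPM in knockdown, a mean 14.9% lower. Of them 16 fell, 1 rose (NPC1) and 5 did not pass (MVK, PMVK, CYP51A1, EBP and STARD4). The 3 LXR targets summed to 6.35 to 8.52 CPM in control and 6.35 to 7.61 CPM in knockdown, most of it MYLIP, and the ranges overlapped. Only 1 of them was tested, so the arms cannot be compared by their calls. The median log2 fold change was -0.23 for the tested SREBP2 targets and 0.08 for MYLIP. With no filter on low counts the median of the 3 LXR targets was -1.21, set by ABCG1.

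Across all tested members, the groups did not overlap in CPM for 19 of 30 genes in the lower direction and for 1, NR1H2, in the higher. Over all tested genes these shares were 28.8% and 19.6%. CPM leave out the scaling factors of the model, and with them the groups of LSS would overlap and those of NPC1 would not. The log2 fold change was below 0 for 26 of the 30, against 50.8% of all tested genes. The 20 members called lower were called lower under each of the other scalings and filters tried. DESeq2's Wald test kept 14 of them. Leaving out 1 library at a time kept 14 to 19 of the 20 called lower, and 14 kept their call in all 18 alternative fits. The 6 that did not were LSS, NSDHL, HSD17B7, SCAP, GGPS1 and NR1H3.

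Per kilobase of transcript, the members spanned a wide range of levels. CPM per kilobase (RPKM, from 1 canonical transcript per gene) averaged 192 ± 5.44 for NPC2, 123 ± 3.995 for FDPS and 79.7 ± 2.99 for EBP in control (SD, n = 3). CYP51A1 followed at 59.9 ± 0.897, FDFT1 at 50.3 ± 0.761 and ACAT2 at 44.7 ± 2.97 RPKM. Lowest of the synthesis genes were TM7SF2 (7.20 ± 1.07), MVK (6.43 ± 0.529) and HSD17B7 (5.63 ± 0.755 RPKM), whose values lie within about 1 SD of a neighbour. ABCG1 (0.262 ± 0.123) and ABCA1 (0.0394 ± 0.0170 RPKM) were far below all others. Isoforms were not resolved, so these levels hold only as far as the canonical transcript is the one expressed.

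**Figure D4:**
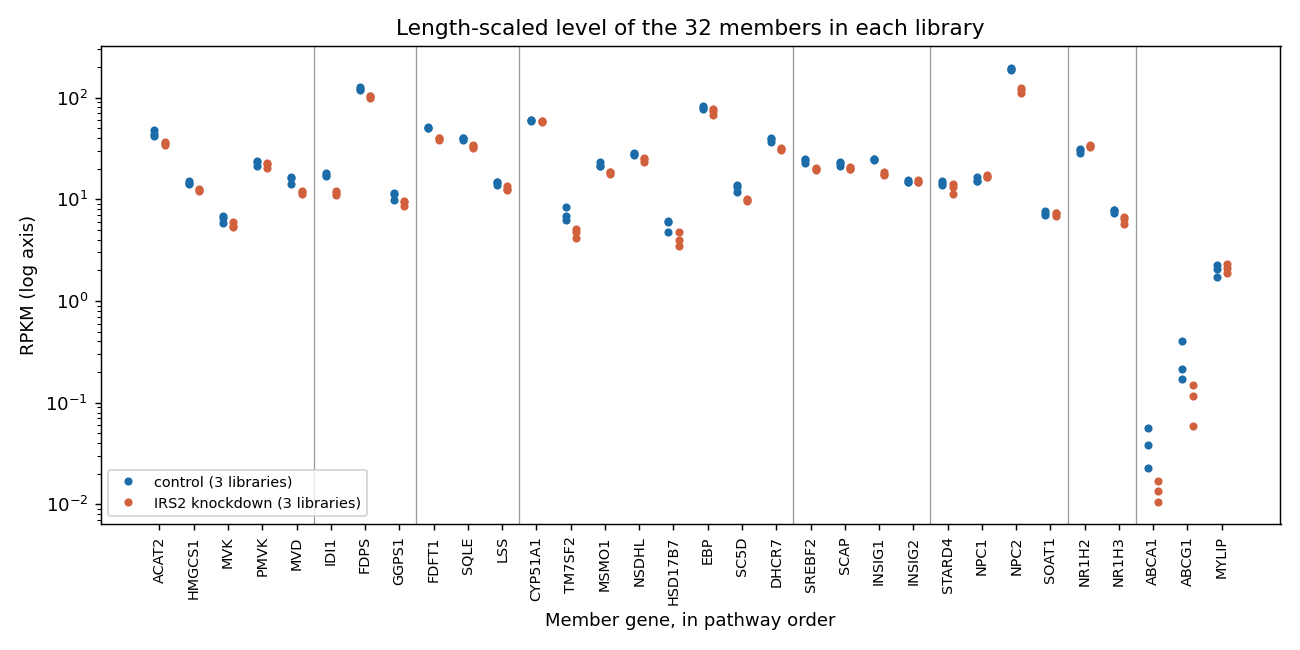
RPKM of each of the 32 members on a log axis, in pathway order, with 1 point per library (3 control, 3 knockdown). Synthesis genes lie between about 3 and 130 RPKM, while ABCG1 and ABCA1 lie below 1 RPKM in all 6 libraries.

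Genes of the same pathways outside the members moved both ways, at shares to be read against the 19.2% lower and 19.3% higher of all tested genes. Of 25 further SREBP partners and targets, including lipoprotein receptors and fatty acid genes, 7 fell, 7 rose and 11 did not pass, with a median log2 fold change of -0.02. Over the 18 alternative fits the counts were 4 to 11 lower and 4 to 7 higher, with 11 and 6 under library size alone and 4 and 7 with no low-count filter. SCD, which makes monounsaturated fatty acids, fell most by p-value (-0.44 ± 0.03 SE, edgeR adjusted p 1.53e-09), followed by the desaturase FADS2 (-0.34 ± 0.05 SE, 5.65e-05) and TMEM97, a sterol-regulated membrane protein (-0.17 ± 0.04 SE, 0.00166). On the other side stood the lipoprotein receptors VLDLR (0.76 ± 0.08 SE, adjusted p 4.61e-07) and LRP8 (0.27 ± 0.05 SE, 0.000206), with LBR. Of 9 further LXR targets, 6 were tested. The phospholipid transfer protein gene PLTP (0.48 ± 0.08 SE, adjusted p 6.28e-05) and the acyltransferase gene LPCAT3 (0.23 ± 0.06 SE, 0.00314) rose. SMPDL3A fell (-0.55 ± 0.19 SE, 0.0277), but not in DESeq2, nor without control replicate 1 or 2 or knockdown replicate 2 or 3, and 3 did not pass. On the branch that uses isoprenoids for dolichol, ubiquinone and protein prenylation, 2 of 10 genes rose, DHDDS (0.26 ± 0.06 SE, 0.00209) and FNTA (0.16 ± 0.04 SE, 0.00895), and the other 8 did not pass, a share of higher genes near that of all genes.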

How the data were processed

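RNA-seq counts per gene symbol for 6 libraries were used as the authors deposited them. The submitters' processing notes name STAR 2.6.1a, Salmon, DESeq2 and hg19, without roles; the counter, annotation and strand setting are not given in the sources used here. A second table holds a normalized signal that the authors deposited, which equals each library's counts divided by 1 constant (0.847 to 1.25). It was used only in an alternative. Columns were matched to samples by their descriptions, with 0 left over. Counts were tested with edgeR 4.0.16 in R 4.3.3 (weighted trimmed mean, TMM, scaling, filterByExpr, quasi-likelihood F-test, group as the only term), adjusted by Benjamini-Hochberg over 13832 genes. The standard error is the absolute log2 fold change over the square root of F. CPM are counts per 1000000 of the library total. An exact permutation test on 3 against 3 libraries cannot go below a two-sided p of 0.1. The labels do not say that cultures were independent beyond their numbering, so p-values measure the spread between these libraries, which may be technical. No pair of libraries agreed within counting error (chi-square per degree of freedom 1.38 to 2.86). The script was tested on simulated counts. The members, roles and lists were chosen with earlier results of these data known. All members are named, with values of every library for the 12 of smallest p, the LXR genes and any that move against their group; other lists give at most 3 genes per direction. The alternatives changed the scaling (size factors of DESeq2, upper quartile, or bare library size) and the filter (none, or 50 counts on average), and tried DESeq2 1.42.0, limma 3.58.1 (voom, or log2 of the deposited normalized signal plus 1), thinned counts, a replicate term, each library left out and an adjusted p under 0.01. Offsets for transcript length and GC (splines of 4 degrees of freedom each) were added after seeing the data.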

Additional observations from a re-analysis of the deposited data

How the results depend on the processing

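The count of members called lower was 20, and it ranged from 14 (DESeq2's Wald test, and an adjusted p under 0.01) to 20 over the alternatives, and likewise from 14 to 20 when 1 library was left out. The count called higher was 2. It was 1 with upper-quartile factors, library size alone, DESeq2's Wald test, the replicate block or an adjusted p under 0.01, and 1 to 2 with 1 library left out, since NPC1 lost its call. DESeq2 called 1848 genes lower and 2042 higher, against 2653 and 2676. Of the calls, 50.2% were higher with TMM and 40.8% with library size alone. Replicate numbers are shared by the groups but are not stated to pair cultures. Deviations of same-numbered libraries correlated at 0.04, -0.01 and -0.10, and 1 of 6 libraries correlated best with its own number. With the replicate block, 20 members were lower and 1 higher, 4862 genes passed in all against 5329, IRS2 was at -1.39 (log2 fold change), NPC1 had an adjusted p of 0.0504, and the 25 further SREBP partners and targets gave 4 lower and 7 higher. With no low-count filter, the median of LXR targets was -1.21 because ABCA1 and ABCG1 then entered it. Sign changes were seen only in members that did not pass. CYP51A1 became 0.0015 with DESeq2 size factors, 0.011 with no filter, 0.0016 in DESeq2, 0.0082 on the normalized signal, 0.0041 with thinned counts, 1.7e-05 with the block, 0.0046 with the length and GC correction, 0.0056 with both, and -0.0108 to 0.0140 with 1 library left out. PMVK became 0.0257 with that correction, 0.0228 with correction and block, and -0.0724 to 0.0322 with 1 library left out. SOAT1 became 0.0068 with no filter, 0.0041 on the normalized signal, and -0.0343 to 0.0301 with 1 library left out. INSIG2 was -0.000291 with library size alone, and MYLIP ranged from -0.0164 to 0.1805 with 1 library left out. The cause of these changes was not tested. Of 540 alternative values for 30 members, 480 had the same sign and the same call.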
